A study of Mus musculus with 6 samples.

Results

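The WAVE regulatory complex was examined through the 9 genes that encode its subunits, Wasf1, Wasf2, Wasf3, Cyfip1, Cyfip2, Nckap1, Abi1, Abi2 and Brk1, taken by symbol from a table of 17794 genes. All 9 were found and all 9 passed the standard expression filter, which left 15960 genes for testing. RNA came from the medial ganglionic eminence (MGE), the ventral forebrain swelling that produces cortical interneurons, of mouse embryos at E13.5. There were 3 control libraries and 3 libraries of a double mutant (dmut), with the tissue of 3 embryos pooled for each. Control embryos carried intact alleles (Rac1+/+ and Rac3+/+), while dmut embryos were Rac1fl/fl and Rac3-/-. Both groups carried the Nkx2.1Tg(Cre) transgene and a heterozygous R26R-YFP reporter. Cre under Nkx2-1 acts only in cells of that lineage, and no sorting of the dissected tissue is described, so every pool could also hold cells with intact Rac1. That the pools came from different litters is not stated, and p-values measure the spread between these libraries.

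As background, the WAVE complex is the main link between Rac and branched actin. Each complex holds 1 subunit from each of 5 classes. These are a WAVE protein (Wasf1, Wasf2 or Wasf3), which carries the segment that activates the Arp2/3 complex, a Cyfip protein, which binds Rac in its GTP-bound form, Nckap1, which pairs with Cyfip, an Abi adaptor, and the small peptide Brk1. The complex is inactive until GTP-bound Rac engages Cyfip and frees the WAVE protein, and the actin network that results drives lamellipodia and the growth cone edge. In the MGE it stands directly downstream of the GTPases deleted here.

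Total gene reads, the reads assigned to a gene including those that also match elsewhere, summed to between 26766556 and 34612095 per library. Dates in the sample titles split the libraries into 3 sets, with control replicate 1 alone on 23 March, the third replicates of either group on 4 May, and the other 3 libraries on 29 March. Rac3 had 728, 647 and 532 reads in control replicates 1, 2 and 3, against 16 in dmut replicate 1 and a listed 0 in the other two dmut libraries. Rac1 averaged 272 ± 2.77 (control) against 248 ± 26.0 CPM (dmut; SD, n = 3 per group; CPM is a gene's share of the library's reads, scaled by TMM factors), and its reads can also come from exons left by recombination and from cells outside the Cre lineage. EdgeR did not call Rac1 (log2 fold of dmut over control -0.13, adjusted p = 0.525). The tissue markers were present, with Lhx6, a transcription factor of postmitotic MGE cells, at 285 to 421 CPM, Vim, an intermediate filament of progenitors, at 756 to 1240 CPM and Map2, a neuronal microtubule protein, at 674 to 878 CPM. Sox2, also on the progenitor list, was listed at 0 in 5 libraries and at 12 reads in dmut replicate 2. Summed markers of cortical excitatory cells, led by Tbr1, were highest in dmut replicate 2 (80.8 CPM, against 7.51 to 42.7 CPM in the other libraries), and summed erythroid markers, led by Hba-a1, were highest in dmut replicate 1 (31910.5 CPM, against 9174 to 18634 CPM). Of the MGE, cortical and erythroid marker lists edgeR called 0 of 7, 0 of 9 and 0 of 7 tested genes, with 3, 0 and 0 at an unadjusted p under 0.05, and DESeq2 called 2, 0 and 0. Over all genes edgeR called 0.482% and DESeq2 10.1%, and 21.3% had an unadjusted p under 0.05 in edgeR.

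Transcripts of the WAVE complex did not pass the test of dmut against control in any subunit class. Of 9 members, 0 were called by edgeR's quasi-likelihood test at a Benjamini-Hochberg adjusted p of 0.05 over all genes, where 0.482% of all tested genes were called, and 0 had an unadjusted p under 0.05, where 21.3% of all tested genes did. DESeq2, which called 10.1% of its genes, also called 0 members. The members' log2 fold changes (dmut over control) ran from -0.14 for Abi2 to 0.10 for Brk1, with 5 above and 4 below 0, and adjusted p from 0.519 to 0.954. Their median was 0.02, beside -0.02 over all tested genes, and their median absolute log2 fold was 0.07, beside 0.24 over all tested genes.

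The bound on a change depended on the scaling. The 95% intervals of the edgeR fit reached at most from 1.38-fold lower (Wasf3) to 1.34-fold higher (Brk1), and 9 of 9 lay wholly inside a margin of 1.5-fold in either direction. With library size alone and with both RPKM scalings 7 of 9 did, Wasf3 and Abi2 reaching beyond it on the lower side. With the date block 7 of 9 did (not Wasf3 and Brk1), with length and GC content corrected 8 of 9 (not Brk1), and without control replicate 1 or without control replicate 3 8 of 9 (not Wasf3). The lowest bound in these fits was 1.67-fold lower, for Brk1. On the upper side the highest bound was a log2 fold of 0.61, for Brk1 with the date block. Each member had between 830 and 10404 reads in each library, so counting alone gives an error of 0.980% to 3.47%. The spread between libraries of a group was mostly wider, with a coefficient of variation of 1.20% to 14.7%. The signs themselves depended on the scaling. With library size alone in place of TMM factors the median tested gene moved to -0.23 and all 9 members were below 0, from -0.34 for Abi2 to -0.10 for Brk1. That fit called 0 members and 4.89% of all tested genes, and 2 members, Cyfip1 and Abi2, had an unadjusted p under 0.05, as did 4493 of 15960 tested genes. The same 2 members did so with log2(RPKM + 1) and log2(RPKM + 0.1), as did 3875 and 3829 of 15960 tested genes.

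**Figure D1:**
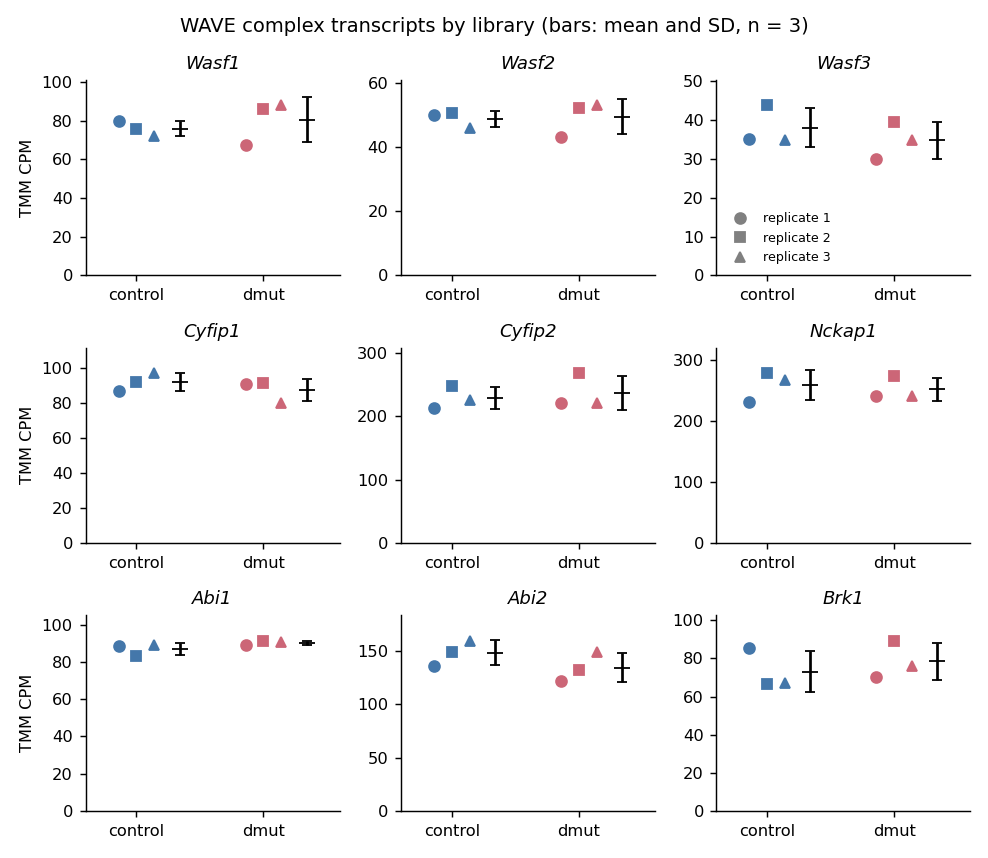
TMM-normalised CPM of the 9 WAVE complex genes, with 1 point per library and the mean and SD of 3 libraries beside each group, on axes that start at 0. Control and dmut points overlap in every gene except Abi1, where the dmut libraries (89.2 to 91.3 CPM) lie just above the control libraries (83.4 to 89.0 CPM).

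**Figure D2:**
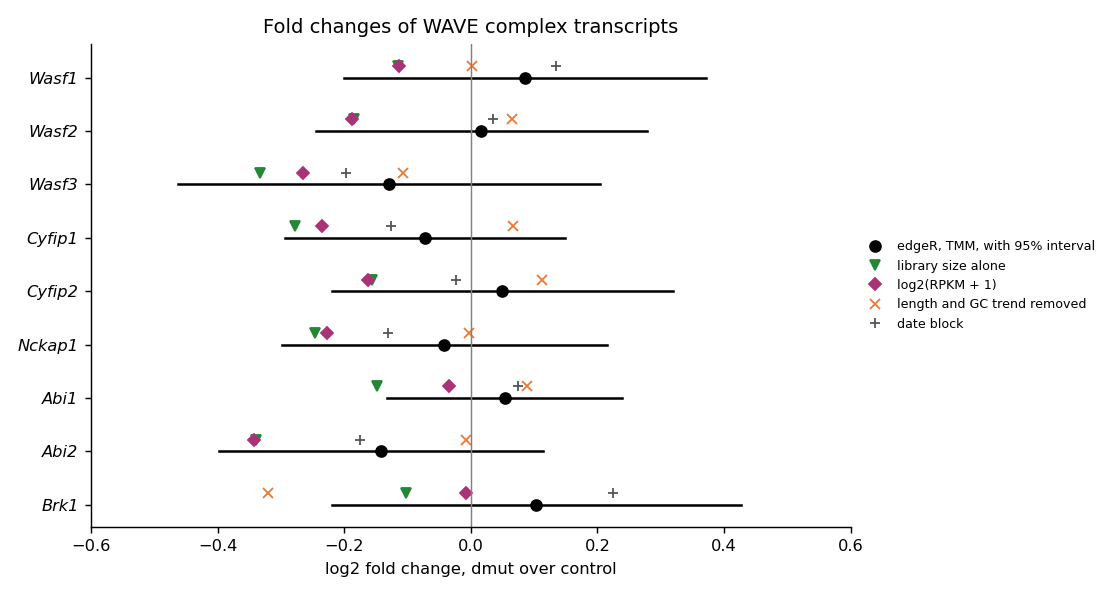
Log2 fold change of each WAVE complex gene, dmut over control, by edgeR with TMM factors (black, with its 95% interval) and by 4 other treatments of the same libraries (coloured marks). Every black interval crosses 0, and library size alone and log2(RPKM + 1) shift all genes to the left.

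Wasf1, Wasf2 and Wasf3 encode WAVE1, WAVE2 and WAVE3, the subunits that hand the signal to Arp2/3. Wasf1 is known mainly from brain, while Wasf2 is broadly expressed. Per length, Wasf1 was the leading paralog, at 25.9, 25.2 and 23.5 RPKM in control replicates 1, 2 and 3 and 18.4, 24.0 and 27.1 RPKM in dmut replicates 1, 2 and 3. Wasf2 stood at 8.11, 8.49 and 7.49 RPKM in control and 5.68, 7.28 and 7.98 RPKM in dmut, and Wasf3 at 8.82, 11.3 and 8.62 RPKM in control and 6.62, 8.54 and 8.16 RPKM in dmut. The level of Wasf1 was 2.97 to 3.19 times that of Wasf2 in the control libraries and 3.24 to 3.40 times in dmut, and Wasf3 lay above Wasf2 in 6 of 6 libraries by a factor of 1.02 to 1.33. That order holds for the deposited RPKM: in total gene reads Wasf3 lay below Wasf2 in 6 of 6 libraries, and per annotated exon length it lay above in 1 of 6. The lead of Wasf1 held on all 3 scales in 6 of 6 libraries.

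To show the start regions of these paralogs, of which Wasf1 led in every library, the 250 bases before the RefSeq transcription start are printed 5′ to 3′ on the coding strand, the + strand in each case (RefSeq, build GRCm38.p6). They cover chr10:40883284-40883533 for Wasf1, chr4:133130383-133130632 for Wasf2 and chr5:146384756-146385005 for Wasf3, and capitals mark GGGCGG, the GC box, on either strand. The GENCODE M21 genes start further upstream, so the last 59, 128 and 21 bases of these windows lie inside the annotated Wasf1, Wasf2 and Wasf3 genes.
Wasf1: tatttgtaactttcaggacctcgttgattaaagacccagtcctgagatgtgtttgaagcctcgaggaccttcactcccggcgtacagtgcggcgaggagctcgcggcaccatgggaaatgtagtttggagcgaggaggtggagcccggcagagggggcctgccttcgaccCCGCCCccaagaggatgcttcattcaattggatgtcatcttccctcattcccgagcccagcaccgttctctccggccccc
Wasf2: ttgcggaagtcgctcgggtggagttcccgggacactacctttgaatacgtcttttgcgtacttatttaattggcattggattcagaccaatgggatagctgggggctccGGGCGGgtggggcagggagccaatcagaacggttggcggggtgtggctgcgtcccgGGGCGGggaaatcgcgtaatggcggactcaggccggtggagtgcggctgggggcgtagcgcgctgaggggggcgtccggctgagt
Wasf3: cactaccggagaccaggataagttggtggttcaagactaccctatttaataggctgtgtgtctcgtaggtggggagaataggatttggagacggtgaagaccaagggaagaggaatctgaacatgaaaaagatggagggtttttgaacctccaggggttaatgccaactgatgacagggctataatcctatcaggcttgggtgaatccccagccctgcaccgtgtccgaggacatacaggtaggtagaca
The GC box occurred 1 time in the Wasf1 window, 2 times in the Wasf2 window (1 of them inside the GENCODE gene) and 0 times in the Wasf3 window, and 32.7% of 32851 windows of this length before annotated starts held it. CCAAT, searched on both strands, occurred 1, 4 and 0 times (33.85% of windows), of which 1, 1 and 0 lay inside the GENCODE genes. TATAAA occurred 0 times in all 3 (12.4% of windows). No GC box match overlapped a CCAAT match in these 3 windows. CpG dinucleotides numbered 15, 23 and 5, beside a median of 6 over all windows. These matches describe the letters only. Of the 9 members, 6 had an entry in this table.

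In normalised reads the 3 WAVE genes were each lowest in dmut replicate 1. Wasf1 stood at 79.9, 75.6 and 72.0 CPM in control replicates 1, 2 and 3 and at 67.2, 86.2 and 87.9 CPM in dmut, so 1 dmut library lay below and 2 above all controls (log2 fold 0.08 ± 0.12 SE). Wasf2 stood at 49.9, 50.7 and 46.0 CPM in control and 43.1, 52.2 and 53.1 CPM in dmut (0.02 ± 0.11). Wasf3 stood at 35.2, 43.8 and 35.0 CPM in control and 30.1, 39.4 and 34.8 CPM in dmut (-0.13 ± 0.14). The groups overlapped in all 3 genes. Dmut replicate 1, the library with the most erythroid RNA, was the lowest library for 4 of the 9 members (Wasf1, Wasf2, Wasf3 and Abi2) and for 27.2% of all tested genes, and the part of its makeup in these values was not tested. The annotated genes lie on chromosome 10 (Wasf1, 40883475 to 40938570), chromosome 4 (Wasf2, 133130505 to 133199756) and chromosome 5 (Wasf3, 146384985 to 146473615), in GENCODE M21 on GRCm38.

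The shares of the WAVE paralogs differed by less than 3 points between the group means. Wasf1 made up 60.4%, 56.1% and 59.4% of the summed Wasf RPKM in control replicates 1, 2 and 3 and 59.96%, 60.3% and 62.7% in dmut. This difference of 2.34 percentage points was within the spread of the libraries (exact permutation test over 3 against 3 libraries, two-sided, p = 0.3, adjusted p = 0.5 over 7 shares). Wasf3 made up 22.5 ± 2.30% in control and 20.6 ± 1.51% in dmut (exact permutation p = 0.4). Within the dates the Wasf1 share was higher in dmut by 4.05 points on 29 March and 3.29 points on 4 May, and the Wasf3 share differed by -3.54 and -2.85 points. Leaving out 1 library moved the Wasf1 difference between 1.06 (without control replicate 2) and 3.24 points (without control replicate 1) and the Wasf3 difference between -0.55 and -2.76 points (without the same libraries). The share of Wasf2 was nearly constant, at 18.9% to 19.0% in the control libraries and 18.3% to 18.5% in dmut. Its groups did not overlap (exact permutation p = 0.1, the smallest that 3 against 3 can give, adjusted p = 0.233), but the difference of -0.50 points turned to 0.04 and 0.23 points when total or unique reads were used without division by length.

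Cyfip1 and Cyfip2 encode the subunits that bind GTP-bound Rac. Both proteins are also known as partners of the translational regulator Fmr1. Cyfip2 was the leading paralog, at 27.9, 33.4 and 29.2 RPKM in control replicates 1, 2 and 3 and 24.5, 29.8 and 26.2 RPKM in dmut, against 9.71, 10.7 and 10.9 RPKM for Cyfip1 in control and 8.71, 8.94 and 8.46 RPKM in dmut. Cyfip2 therefore stood at 2.68 to 3.34 times the level of Cyfip1 (and above it in 6 of 6 libraries in total gene reads and per annotated exon length), and at 74.2 ± 1.43% of the pair in control and 75.4 ± 1.605% in dmut (exact permutation p = 0.5).

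Neither Cyfip gene passed the test between groups. Cyfip1 stood at 86.9, 92.1 and 97.2 CPM in control and 91.2, 91.3 and 80.2 CPM in dmut (log2 fold -0.07 ± 0.09 SE, edgeR adjusted p = 0.728). Cyfip2 stood at 213, 248 and 226 CPM in control and 220, 268 and 222 CPM in dmut (0.05 ± 0.12, adjusted p = 0.855). Cyfip1 was lowest in dmut replicate 3 and Cyfip2 highest in dmut replicate 2, with overlapping groups in both. Of the Cyfip2 reads 88.4% to 90.9% were unique, against 99.05% to 99.9% for Cyfip1, and the log2 fold of Cyfip2 from unique reads was 0.05. Exons of Cyfip1 (chromosome 7, 55841745 to 55932602) overlap those of Nipa2 on the opposite strand over 1316 bp. No strand setting of the counting is known here, so reads there cannot be told apart. Cyfip2 lies on chromosome 11 (46193850 to 46312859).

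Nckap1 encodes the scaffold that pairs with Cyfip, and it has no paralog among the 9 members. It was the second most abundant subunit transcript, at 48.1, 59.2 and 55.3 RPKM in control replicates 1, 2 and 3 and 42.9, 48.9 and 46.3 RPKM in dmut. In normalised reads it stood at 231, 278 and 267 CPM in control and 240, 274 and 240 CPM in dmut, so the ranges overlapped (log2 fold -0.04 ± 0.11 SE, edgeR adjusted p = 0.873). Its blood-lineage paralog Nckap1l had only 113 to 196 reads per library, or 0.801 to 1.24 RPKM, and averaged 5.04 ± 0.735 (control) against 4.94 ± 1.12 CPM (dmut). Nckap1 is on chromosome 2 (80500512 to 80581380).

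Abi1 and Abi2 encode adaptors that bridge the complex to Abl kinases. They were the one paralog pair with a shift in proportions beyond 5 points. Abi1 made up 42.0%, 38.9% and 38.5% of the summed Abi RPKM in control replicates 1, 2 and 3 and 48.4%, 44.9% and 42.5% in dmut. Every dmut library thus lay above every control library, with a mean difference of 5.45 percentage points (exact permutation test, two-sided, p = 0.1, the smallest this test can give with 3 against 3, adjusted p = 0.233 over 7 shares), so this test cannot pass a threshold of 0.05 here. The ratio of Abi2 to Abi1 was 1.38 to 1.599 in control and 1.07 to 1.35 in dmut, and Abi2 was the higher paralog by RPKM in 6 of 6 libraries. In total gene reads it was also higher in 6 of 6, but per annotated exon length in 0 of 6, with a ratio of 0.646 to 0.845, so which Abi paralog leads depends on the length used. The Abi1 share was higher in dmut within both dates that hold both groups, by 7.70 points on 29 March (2 dmut libraries against 1 control) and by 4.07 points on 4 May (1 against 1).

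How that shift divided between the 2 genes depended on the scaling. Abi2 stood at 23.6, 26.5 and 27.4 RPKM in control replicates 1, 2 and 3 and 17.5, 19.7 and 23.6 RPKM in dmut, while Abi1 stood at 17.1, 16.9 and 17.1 RPKM in control and 16.4, 16.1 and 17.5 RPKM in dmut. With log2(RPKM + 0.1) the differences were -0.36 for Abi2 and -0.0364 for Abi1. The median tested gene, at -0.18 on that scale, lay between them. In normalised reads Abi2 stood at 136, 149 and 159 CPM in control and 122, 132 and 149 CPM in dmut (log2 fold -0.14 ± 0.11 SE, edgeR adjusted p = 0.519), with overlapping groups. Abi1 stood at 88.6, 83.4 and 89.0 CPM in control and 89.2, 91.3 and 90.5 CPM in dmut (0.05 ± 0.08, adjusted p = 0.762). Abi1 was the 1 member of 9 whose groups did not overlap in CPM, against 28.5% of all tested genes. With total gene reads in place of RPKM the mean difference in the Abi2 share was -3.25 points (exact permutation p = 0.2), against -5.45 points by RPKM. In a fit corrected, library by library, for how values follow exon length and GC content, Abi2 stood at -0.01 and Abi1 at 0.09 on the log2 scale.

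Abi1 also differed between its 2 measures. The ratio of RPKM to the share of library reads that the gene takes (total gene reads) changes between libraries when the reads that enter RPKM are a changing part of a gene's reads. For Abi1 it was 0.178 to 0.188 in control and 0.194 to 0.202 in dmut, and for Brk1 0.799 to 0.828 and 0.861 to 0.881. With Wasf3, 3 of 9 members had groups that did not overlap in this ratio, all higher in dmut, beside 37.7% of 14144 genes in either direction and 30.2% with dmut higher. Of the Abi1 reads 86.6% to 89.8% were unique, the lowest of these percentages among the 9 members, and with unique reads alone its log2 fold was 0.08. Abi1 lies on chromosome 2 (22940073 to 23040241), with 194 bp of exon overlapping Pdss1 on the opposite strand, and Abi2 on chromosome 1 (60409619 to 60481158). The related gene Abi3, known from microglia, had 14 to 25 reads per library. Summed microglial markers, led by Cx3cr1, stood at 72.8 to 89.4 CPM in the control and 93.1 to 122 CPM in the dmut libraries (78.7 to 96.9 and 91.1 to 111 CPM with library size alone), with 0 of 10 called by edgeR, 3 at an unadjusted p under 0.05 and 3 called by DESeq2. Endothelial markers, led by Kdr, summed to 144 to 163 and 149 to 189 CPM, with 0 of 7 called by either tool and 0 at an unadjusted p under 0.05. Over all genes edgeR called 0.482% and DESeq2 10.1%, and 21.3% had an unadjusted p under 0.05 in edgeR.

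**Figure D3:**
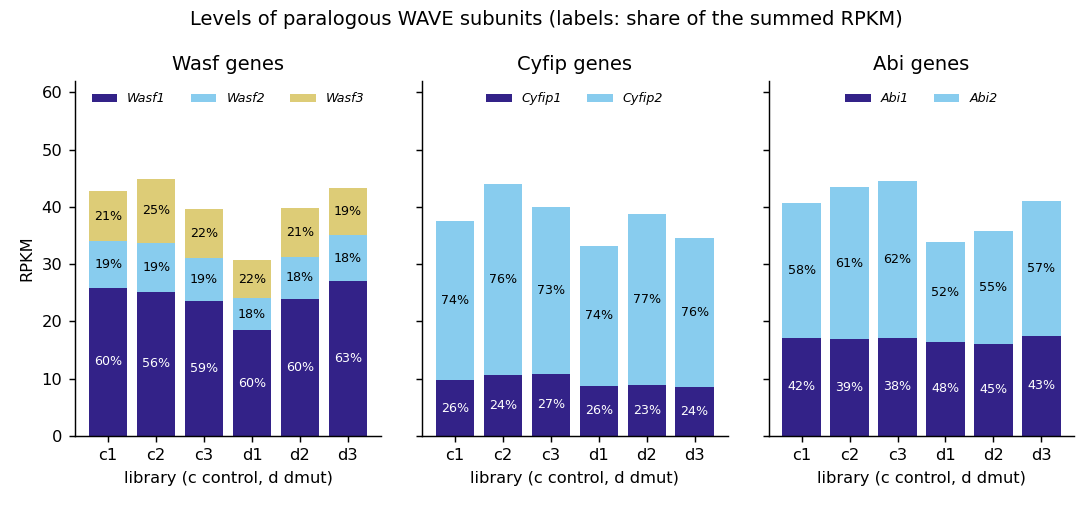
RPKM of the Wasf, Cyfip and Abi paralogs stacked by library (c1 to c3 control, d1 to d3 dmut), with each gene's share of the family sum printed in its bar. Wasf1 and Cyfip2 lead their families in every library, and the Abi1 share is 38.5% to 42.0% in control and 42.5% to 48.4% in dmut.

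Brk1 encodes the smallest subunit, a peptide needed for assembly of the complex. It was the most abundant of the 9 transcripts per length, at 73.9, 59.4 and 58.7 RPKM in control replicates 1, 2 and 3 and 55.0, 71.5 and 64.4 RPKM in dmut. In normalised reads it stood at 85.4, 66.4 and 67.3 CPM in control and 70.4, 89.2 and 75.8 CPM in dmut, so the groups overlapped broadly (log2 fold 0.10 ± 0.14 SE, edgeR adjusted p = 0.732). Brk1 is also the member whose log2 fold moved most in the fit corrected jointly for exon length and GC content. In that fit, which does not separate length from GC content, its log2 fold was -0.32 (edgeR adjusted p = 0.381). This lay outside its own interval of -0.22 to 0.43. With an annotated exon length of 1095 bp Brk1 is the shortest of the 9. It lies on chromosome 6 (113604772 to 113616951).

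In order of mean RPKM as deposited over all 6 libraries the subunit transcripts ran from Brk1 (63.8 ± 7.55 SD) through Nckap1 (50.1 ± 6.004), Cyfip2 (28.5 ± 3.10), Wasf1 (24.0 ± 3.03), Abi2 (23.1 ± 3.84), Abi1 (16.8 ± 0.535), Cyfip1 (9.57 ± 1.04) and Wasf3 (8.67 ± 1.495) to Wasf2 (7.50 ± 0.994). Brk1 exceeded Nckap1, and Nckap1 exceeded Cyfip2, in 6 of 6 libraries. Cyfip2 exceeded Wasf1 in 5 of 6, Wasf1 exceeded Abi2 in 4 of 6 and Cyfip1 exceeded Wasf3 in 5 of 6, so these neighbours did not hold 1 order in all libraries. Summed within classes, the paralogs gave 42.5 ± 2.65 RPKM for Wasf, 40.6 ± 3.28 for Cyfip and 42.9 ± 1.98 for Abi in control, while Nckap1 and Brk1, alone in their classes, stood at 54.2 ± 5.59 and 64.0 ± 8.598 RPKM. In dmut the 5 class levels were, in the same order, 37.9 ± 6.47, 35.5 ± 2.91, 36.9 ± 3.76, 46.0 ± 2.99 and 63.6 ± 8.27 RPKM. These are on the RPKM scale as deposited, on which the median tested gene also lay below 0 (-0.10 with log2(RPKM + 1) and -0.18 with log2(RPKM + 0.1)). The member medians were -0.19 with log2(RPKM + 1) and -0.21 with log2(RPKM + 0.1).

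Within the 2 dates that hold both groups the members did not share 1 direction. On 29 March the difference in log2 CPM ran from -0.35 for Wasf3 to 0.25 for Brk1, and on 4 May from -0.28 for Cyfip1 to 0.29 for Wasf1. Wasf3, Cyfip1, Cyfip2, Nckap1 and Abi2 were lower in dmut on both dates, Wasf1, Abi1 and Brk1 higher on both, and Wasf2 stood at -0.10 and then at 0.21. These differences rest on 1 control library each and carry no test. A fit that blocked on the date called 0 members and 0 of all genes, with 2033 genes at an unadjusted p under 0.05.

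Other genes of the pathway were counted in the same fit. Over all genes edgeR called 0.482% and DESeq2 10.1%, and 21.3% had an unadjusted p under 0.05 in edgeR. Of 10 Arp2/3 subunits, the nucleator that WAVE activates, edgeR called 0, with 4 at an unadjusted p under 0.05, while DESeq2 called 4 higher in dmut. The list median was 0.23 beside -0.02 over all tested genes, and with library size alone 0.03 beside -0.23. Arpc3 ranged from 63.3 to 83.1 CPM over the control libraries and from 98.9 to 133 CPM over the dmut libraries (log2 fold 0.74 ± 0.15 SE, edgeR adjusted p = 0.0768) and Arpc2 from 127 to 138 and from 162 to 202 CPM (0.49 ± 0.11, adjusted p = 0.0806). Both were called when dmut replicate 2 was left out, and Arpc3 also in the fit with the replicate number as a block. The summed Arp2/3 level was 1019 to 1086 CPM in control and 1196 to 1247 CPM in dmut, while the summed WAVE level was 1006 to 1088 CPM in control and 974 to 1124 CPM in dmut. With TMM factors the Arp2/3 sum thus separated the groups and the WAVE sum did not. With library size alone this turned round: the Arp2/3 sums overlapped (1101 to 1144 CPM in control, 1086 to 1219 CPM in dmut) and the WAVE sums lay lower in all dmut libraries (1091 to 1176 against 885 to 1022 CPM). On that scale other lists also lay lower in all dmut libraries. These were other Arp2/3 activators (431 to 454 against 353 to 389 CPM) and Rac GTPases with their activators (2091 to 2164 against 1715 to 1920 CPM). Summed neuronal markers (3403 to 3998 CPM in control, 4356 to 4639 CPM in dmut) and summed progenitor markers (1842 to 1930 and 2167 to 2659 CPM) also separated the groups with TMM factors, and overlapped with library size alone (3692 to 4214 against 3960 to 4544 CPM, and 1994 to 2034 against 1970 to 2416 CPM). EdgeR called 0 genes of either list (3 of 8 neuronal and 3 of 7 progenitor genes had an unadjusted p under 0.05). DESeq2 called 2 neuronal genes, with opposite signs (Tubb3 higher and Snap25 lower in dmut), and 1 progenitor gene. Of the 8 neuronal genes 5 had a log2 fold above 0, with a list median of 0.0997. With TMM factors Tubb3 stood at 642, 667 and 940 CPM in control and 1624, 1162 and 1437 CPM in dmut. Much of the difference in the neuronal sum lay in this gene. In bulk tissue a change in cell numbers cannot be told apart from a change in RNA per cell. The part of cell makeup in these values was not tested.

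The lists that follow stand beside the same all-gene shares, 0.482% called by edgeR, 10.1% by DESeq2 and 21.3% at an unadjusted p under 0.05. Of 28 partners known to bind or regulate WAVE, edgeR called 0 and DESeq2 4 (3 higher and 1 lower), with 5 at an unadjusted p under 0.05 in edgeR and a median of 0.02. Their summed level was 2681 to 2721 CPM in the control libraries and 2794 to 2997 CPM in dmut, and with library size alone it lay lower in dmut (2868 to 2923 against 2538 to 2824 CPM). The members of smallest p were Evl, an Ena/VASP actin elongation factor, with a mean of 297 ± 36.9 (control) against 405 ± 42.8 CPM (dmut) (edgeR adjusted p = 0.117), and the adaptor Grb2, at 131 ± 2.01 and 161 ± 12.1 CPM (adjusted p = 0.118). Of 12 other Arp2/3 activators and their partners, edgeR and DESeq2 called 0 each, with 3 at an unadjusted p under 0.05 in edgeR and a median of -0.10. The 2 of smallest p both belong to the WASH complex, which activates Arp2/3 on endosomes, and they had opposite signs, Ccdc53 (Washc3) at 11.4 ± 0.949 and 15.7 ± 1.84 CPM (adjusted p = 0.118) and A230046K03Rik (Washc4) at 32.9 ± 2.95 and 23.7 ± 3.64 CPM (adjusted p = 0.118). With library size alone A230046K03Rik was called, as were 4.89% of all tested genes. Of 21 Rac GTPases and activators edgeR called 1, Rac3, the gene deleted in dmut, with 9 at an unadjusted p under 0.05, and the list median was -0.13. Rac3 itself was not called when any 1 control library or dmut replicate 3 was left out, with the date block or by limma-voom. Library size alone added Dock3 and Prex1, and DESeq2 called 4 of the list, 2 in each direction.

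**Figure D4:**
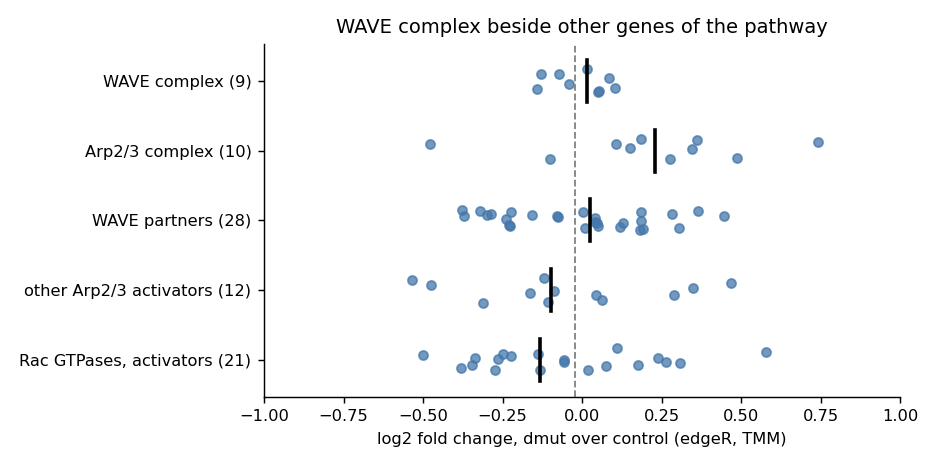
Log2 fold changes (edgeR with TMM factors, dmut over control) of WAVE complex genes beside 4 lists of pathway genes, with 1 point per gene, list medians as black lines, the median of all tested genes as a dashed line and numbers of tested genes in brackets. Rac3, counted in its list at -6.47, lies outside the axis and is not drawn. The WAVE points span -0.14 to 0.10, while the Arp2/3 points span -0.48 to 0.74.

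The gene nearest to each member in its course over the 6 libraries (highest Pearson r of log2 CPM among all tested genes) was Prkar1b for Wasf1 (0.988), Sult4a1 for Wasf2 (0.993), Six3os1 for Wasf3 (0.997), Fam198b for Cyfip1 (0.996), Add1 for Cyfip2 (0.988), Hsd17b3 for Nckap1 (0.983), Gm10182 for Abi1 (0.984), Zfp317 for Abi2 (0.992) and Mettl9 for Brk1 (0.986). With 6 libraries such values are common, and each member had 7 to 52 genes above 0.95. In 0 of 9 cases was the nearest gene another subunit of the complex. With 9 members among 15960 tested genes this count was likely from the start, so nothing is concluded from it. The closest pair of subunits was Wasf1 and Wasf2, at 0.940.

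In the authors' deposited table the signed folds of the 9 members ran from -1.14 for Abi2 to 1.11 for Brk1, with an adjusted p of 1 for each.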

How the data were processed

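Per the labels' protocols, total RNA from pooled MGEs was column-purified, mRNA was isolated on beads and barcoded Ion Torrent libraries were made. The submitters' processing notes name GRCm38 (mm10). The sources used here do not name the aligner, the counting program or its strand setting. The deposited table holds, per the file headers, total and unique gene reads as counts, RPKM, and the authors' own p-value, adjusted p-value and signed fold score for each gene. No nonzero total gene read count was below 10. A further 23 per-sample columns (6 quantile-normalised, 17 coordinates) were not used.

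Groups were compared with edgeR 4.0.16 under R 4.3.3 by its quasi-likelihood test, two-sided, on total gene reads, with TMM factors and the standard filter, dmut against control without covariates. Limma 3.58.1 and DESeq2 1.42.0 served as alternatives. Paralog shares used deposited RPKM and an exact permutation test (scipy 1.17.1). On simulated data for this comparison (15151 genes), edgeR recovered 8.96% of the 1.5-fold changes, 65.7% of the 2-fold changes and 93.9% of the 4-fold changes and made 9 false calls. Intervals on counting cover counting error only.

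The members, gene lists and tests were chosen with earlier results of these data known. The named genes are all 9 members, Rac1 and Rac3, Nckap1l and Abi3, from each pathway list up to 4 called genes or else the 2 of smallest p, the highest member of the main marker lists, and the nearest gene in pattern to each member. Sox2 falls outside this rule and was picked with its reads already known. Tubb3, Snap25, Dock3 and Prex1 fall outside it too and are named because of their results. Among the neuronal markers Map2 had the highest mean in control only (785 CPM, against 750 CPM for Tubb3). In dmut the mean of Tubb3 was higher (1408 CPM, against 776 CPM for Map2). The symbol of 1 WASH gene (Washc4) was corrected, and the ratio of RPKM to reads, the list sums without TMM factors and the paralog order on other length scales were added, after the data were seen. Within a group, pairs of libraries differed by more than counting noise (lowest chi-square over its degrees of freedom 26.6), so each counted as 1 replicate.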

Additional observations from a re-analysis of the deposited data

How the results depend on the processing

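Over 19 alternatives the number of WAVE members called stayed at 0 of 9, the lowest adjusted p was 0.0924, and the members' log2 folds stayed between -0.36 and 0.23. Of 171 member values 147 kept their sign and 24 changed it, none past a threshold. The alternative with an adjusted p threshold of 0.1 uses the reported fit, so its 9 values, counted among the 147, could not change sign. With library size alone the reversed values were -0.12 (Wasf1), -0.18 (Wasf2), -0.16 (Cyfip2), -0.15 (Abi1) and -0.10 (Brk1). With log2(RPKM + 1) they were -0.11, -0.19, -0.16, -0.0346 and -0.0085, and with log2(RPKM + 0.1) -0.12, -0.21, -0.17, -0.0364 and -0.0086, in the same order. Correction for length and GC content turned Cyfip1 to 0.0672 and Brk1 to -0.32, and the date block turned Cyfip2 to -0.0238. Leaving out 1 library turned Wasf2 below 0 without control replicate 3, dmut replicate 2 or dmut replicate 3 (range -0.0450 to 0.106), Cyfip2 without control replicate 1 or dmut replicate 2 (range -0.0507 to 0.111) and Nckap1 above 0 without control replicate 2 (range -0.117 to 0.0128). The cause was not tested. The Wasf2 share difference of -0.50 points became 0.0412 with total reads and 0.226 with unique reads, and the other shares kept their direction.

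Over all genes, 77 were called as reported, 780 without TMM factors, 135 among genes averaging 50 reads or more, 1783 with DESeq2, 127 with limma-voom, 49 with log2(RPKM + 1), 227 with the replicate block, 47 in the fit corrected for length and GC content, 1065 when the adjusted p threshold was 0.1, and from 2 to 585 when 1 library was left out. With the date block edgeR called 0, with 2033 genes at an unadjusted p under 0.05, and no other tool was run with it. Same-numbered libraries correlated at 0.110, 0.123 and 0.015 in their deviations, so the numbers do not establish pairs, and with the replicate block 0 members were called and within-number permutation of the shares gave p from 0.25 to 0.5 (exact, smallest possible 0.25).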
